A study of Mus musculus with 20 samples.

Results

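The genes of lipoprotein lipase action and fatty acid uptake were followed in the subcutaneous inguinal white adipose tissue (iWAT) of mice. They were Lpl, Lipf, Gpihbp1, Angptl4, Lmf1, Vldlr, Cd36, Fabp4, Fabp5 and Slc27a1, 10 of the 36611 genes of the annotation. Lipf was chosen by its measured level on high fat diet in these libraries, so its diet difference is given as a description, with no test. The other 9 were chosen by their place in the pathway, with earlier results of these data known. The libraries came from 20 female mice of the labelled strain C57BL/6, from a floxed line on C57BL/6 N Tac and a Cre line on C57BL/6 J, aged 6 months, 5 in each of 4 groups, with 1 library per mouse. Control mice (labelled wild type) were littermates homozygous for the floxed Tmem120a allele but without Cre. In Ad-Tmem120a-/- mice, exons 2 and 3 of Tmem120a were removed by a Cre recombinase driven by the adiponectin promoter, which acts in adipocytes, so that the other cells of the tissue kept the gene. Tmem120a encodes a transmembrane protein of the nuclear envelope. Mice of each genotype ate a low fat diet (LFD) or a high fat diet (HFD) for 15 weeks, and all were fasted for 16 h before the tissue was taken.

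As background, the triglyceride of circulating lipoproteins is too large to enter a fat cell. Lipoprotein lipase, made by adipocytes and matured in their endoplasmic reticulum, is carried across the endothelium to the capillary surface, where it splits triglyceride into fatty acids that are taken up, bound by carrier proteins and stored again. Fasting lowers the activity of the enzyme in fat through the inhibitor Angptl4, and feeding raises it. Lipf encodes gastric lipase, a secreted lipase of the acid lipase family best known from the stomach.

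The libraries held between 54605101 and 92387737 estimated counts. Levels are given as TPM, the abundance of a transcript relative to all transcripts of the library after correction for length, and tests were made with edgeR on gene sums of the estimated counts, where a gene was called at an adjusted p under 0.1. As a check of the labels, Tmem120a was at 85.4 ± 28.4 TPM (SD, n = 5) in control and 41.5 ± 21.9 TPM in Ad-Tmem120a-/- iWAT on LFD, and at 119 ± 44.5 and 51.6 ± 26.7 TPM on HFD, a log2 difference of -1.65 ± 0.24 (SE) over both diets (edgeR adjusted p = 0.00452). On each diet alone it did not pass (adjusted p = 0.929 on LFD and 0.173 on HFD), and the highest Ad-Tmem120a-/- library lay above the lowest control library, at 74.0 against 57.9 TPM on LFD and 89.7 against 83.3 TPM on HFD. The 9 white adipocyte markers were all detected, with a summed level from 3271 to 9221 TPM. Cfd had the widest range of them, from 683 to 5349 TPM, so the sum can follow this gene. The markers did not all move in 1 direction. From LFD to HFD in control iWAT, the mean of Cfd went from 2444 to 1225 TPM and that of Lep from 169 to 804 TPM. Some libraries also held markers of other tissues. The 12 skeletal muscle fibre markers summed to between 45.0 and 3795 TPM, and 4 libraries stood highest, with 3795 TPM in control LFD replicate 5, 1723 in Ad-Tmem120a-/- HFD replicate 17, 1220 in Ad-Tmem120a-/- LFD replicate 9 and 1199 in Ad-Tmem120a-/- HFD replicate 19. In bulk tissue, fewer cells of a type and less RNA per cell cannot be told apart.

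All 10 genes passed the filter of a mean of 0.5 TPM in every comparison. Fabp4, an intracellular fatty acid carrier, had the highest level at a mean of 17310 TPM over the 20 libraries. It was followed by the fatty acid translocase Cd36 at 2516 TPM, Lpl at 1249 TPM and the related carrier Fabp5 at 182 TPM. Slc27a1, Angptl4, Gpihbp1 and Vldlr lay close together at 56.7, 55.5, 53.7 and 47.7 TPM, within each other's range over the libraries. Lipf at 9.55 TPM and Lmf1 at 5.20 TPM were lowest. The 10 genes together held a median of 1.82% of all TPM in control and 1.68% in Ad-Tmem120a-/- iWAT on LFD, and 2.62% and 2.59% on HFD.

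Several of the genes share a chromosome of the NCBIM37 (mm9) build. Fabp5 (ENSMUSG00000027533, chr3:10012548-10016607, plus strand) and Fabp4 (ENSMUSG00000062515, chr3:10204347-10208576, minus strand) are neighbours in a cluster of carrier genes. Vldlr (ENSMUSG00000024924, chr19:27290974-27328721, plus strand) and Lipf (ENSMUSG00000024768, chr19:34035677-34051300, plus strand) are on chromosome 19. Lmf1 (ENSMUSG00000002279, chr17:25716119-25799771, plus strand) and Angptl4 (ENSMUSG00000002289, chr17:33910695-33918520, minus strand) are on chromosome 17, and Lpl (ENSMUSG00000015568, chr8:71404390-71431347, plus strand) and Slc27a1 (ENSMUSG00000031808, chr8:74092826-74110607, plus strand) on chromosome 8. Gpihbp1 (ENSMUSG00000022579, chr15:75427088-75428642, plus strand) and Cd36 (ENSMUSG00000002944, chr5:17287508-17394777, minus strand) stand alone.

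The sequences just upstream are shown for Lipf, which was chosen for its HFD level, and for Gpihbp1 and Vldlr, the genes called higher on HFD. Each is the 250 bases before the annotated gene start in NCBIM37, 5′ to 3′ on the plus strand, at chr19:34035427-34035676, chr15:75426838-75427087 and chr19:27290724-27290973. Capitals mark a match, on either strand, to one of 3 words: the TATA box word TATAAA, the nuclear receptor half-site AGGTCA and the CCAAT box word CCAAT.
Lipf: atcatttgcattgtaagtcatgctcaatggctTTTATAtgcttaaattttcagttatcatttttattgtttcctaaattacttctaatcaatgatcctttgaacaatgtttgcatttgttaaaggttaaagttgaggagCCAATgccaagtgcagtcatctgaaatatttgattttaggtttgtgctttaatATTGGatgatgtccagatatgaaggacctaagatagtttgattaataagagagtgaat
Gpihbp1: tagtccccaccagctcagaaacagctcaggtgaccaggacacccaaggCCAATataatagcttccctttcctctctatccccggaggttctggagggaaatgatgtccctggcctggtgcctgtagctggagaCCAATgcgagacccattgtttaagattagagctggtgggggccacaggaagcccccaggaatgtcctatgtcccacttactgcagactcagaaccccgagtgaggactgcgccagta
Vldlr: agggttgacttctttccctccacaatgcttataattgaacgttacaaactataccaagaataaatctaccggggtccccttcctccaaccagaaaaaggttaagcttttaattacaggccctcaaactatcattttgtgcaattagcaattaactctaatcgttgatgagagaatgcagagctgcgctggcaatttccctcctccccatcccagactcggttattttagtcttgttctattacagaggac
The Lipf window held TATAAA on the minus strand 218 bases before the start, and CCAAT 111 bases before it on the plus strand and 58 bases before it on the minus strand. The Gpihbp1 window held CCAAT on the plus strand at 202 and 117 bases before the start, and the Vldlr window held none of the words. Over 22375 windows of protein-coding genes, 12.3% held TATAAA, 12.6% AGGTCA and 35.0% CCAAT. The matches describe letters in these windows only.

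The first question was how the diet changed these genes in control iWAT. Gpihbp1 and Vldlr rose on HFD, and Lipf stood far above its LFD level. Cd36 also lay higher in every HFD library but did not pass the main test. Of the 9 genes other than Lipf, 7 had a higher estimate on HFD and 2 a lower one, where 45.8% of all genes had a higher one. Their median log2 difference was 0.37 against -0.04 over all genes. Of these 9 genes, 2 were called, where 9.32% of the 15311 genes tested were called in either direction and 4.42% were called higher. In Ad-Tmem120a-/- iWAT the same 2 genes were called, with 9.4% of 15705 genes called and 4.55% called higher. The 9 genes again gave 7 estimates higher and 2 lower, where 50.3% of all genes were higher, and a median of 0.34 against 0.00 over all genes. With so few genes, the counts are a description.

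**Figure D1:**
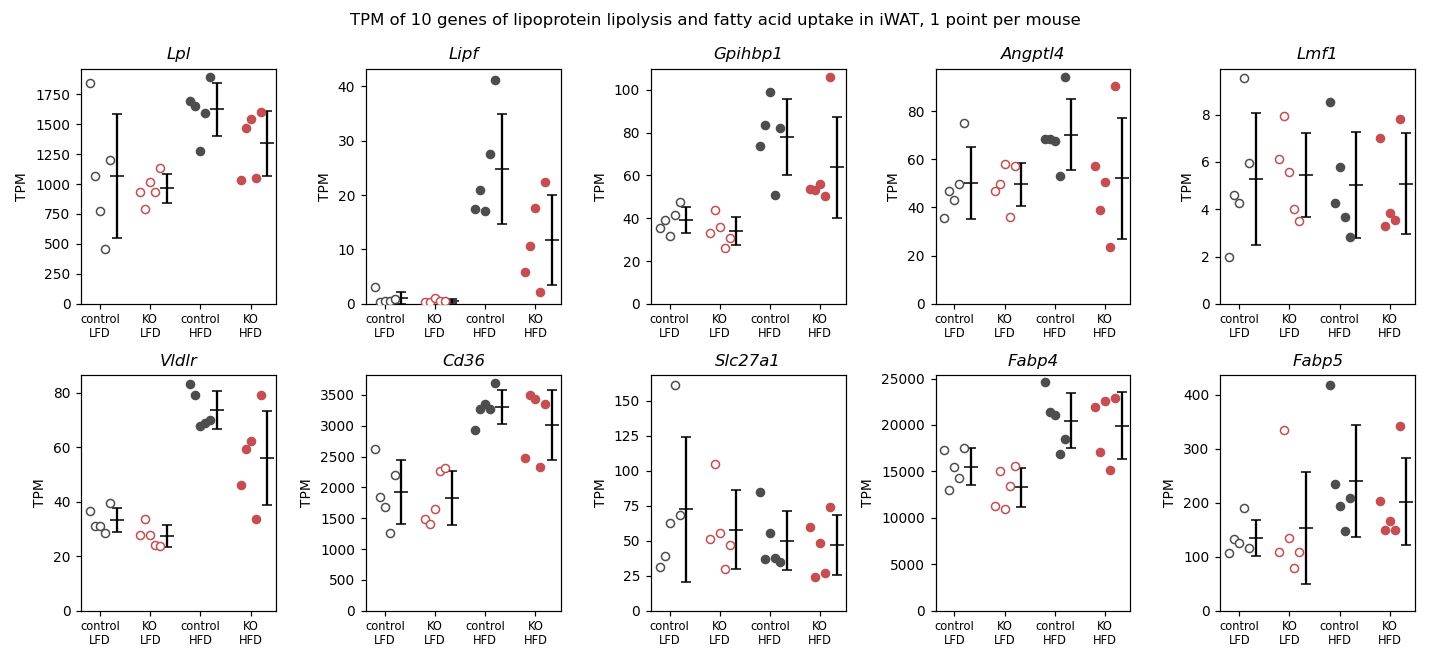
TPM of each of the 10 genes on linear axes from 0, with 1 point per mouse, and beside the points the mean and SD (bars) of each group of 5; open points are LFD, filled points HFD, grey control and red Ad-Tmem120a-/- (KO). Lipf lies between 0.261 and 3.0 TPM in the 10 LFD libraries and between 2.12 and 41.2 TPM in the 10 HFD libraries, and Gpihbp1 and Cd36 are separated by diet within each genotype.

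Lpl itself, the enzyme, was variable on LFD. Control LFD libraries held 1843, 1071, 778, 461 and 1198 TPM, and Ad-Tmem120a-/- LFD libraries 935, 794, 1018, 936 and 1134 TPM. Control HFD libraries held 1695, 1654, 1280, 1592 and 1893 TPM, and Ad-Tmem120a-/- HFD libraries 1035, 1467, 1543, 1054 and 1599 TPM. The groups overlapped in both genotypes: control LFD replicate 1 lay among the HFD libraries, and the lowest Ad-Tmem120a-/- HFD libraries lay among the LFD ones. The mean was 1070 ± 517 TPM on LFD and 1623 ± 222 on HFD in control iWAT, and 963 ± 125 and 1340 ± 274 in Ad-Tmem120a-/- iWAT. The log2 differences of 0.37 ± 0.29 (SE, edgeR adjusted p = 0.522) and 0.34 ± 0.19 (adjusted p = 0.346) did not pass the test. Salmon divided Lpl mainly between 2 protein-coding transcripts, Lpl-001 and Lpl-201, and its estimate for Lpl-001 was 67.1% of the Lpl TPM on average. The estimated share varied widely between mice of a group, from 42.3 to 97.9% in control LFD and from 39.5 to 92.2% in Ad-Tmem120a-/- HFD iWAT.

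Lmf1, the endoplasmic reticulum factor that lets lipases fold, showed no diet difference of a size the test could call. Its level was 5.27 ± 2.80 TPM in control LFD, 5.44 ± 1.78 in Ad-Tmem120a-/- LFD, 5.02 ± 2.24 in control HFD and 5.09 ± 2.14 in Ad-Tmem120a-/- HFD iWAT. The libraries ranged from 1.97 TPM in control LFD replicate 1 to 9.57 TPM in control LFD replicate 4, so the widest spread was within a group. The log2 diet differences were -0.36 ± 0.35 (edgeR adjusted p = 0.625) and -0.29 ± 0.24 (adjusted p = 0.555).

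Gpihbp1, the endothelial protein that picks up lipoprotein lipase and holds it at the capillary wall, rose on HFD in both genotypes. Control LFD libraries held 35.4, 39.4, 31.5, 41.5 and 47.8 TPM, and control HFD libraries 73.6, 83.7, 99.0, 50.8 and 82.3 TPM. Ad-Tmem120a-/- LFD libraries held 33.2, 43.9, 36.0, 25.9 and 30.9 TPM, and Ad-Tmem120a-/- HFD libraries 53.5, 53.0, 56.2, 50.6 and 106 TPM. Every HFD library lay above every LFD library of its genotype. The log2 difference was 0.81 ± 0.15 in control iWAT (1.76-fold, edgeR adjusted p = 0.0120) and 0.80 ± 0.17 in Ad-Tmem120a-/- iWAT (1.74-fold, adjusted p = 0.0224). Without the 4 libraries richest in muscle fibre markers, an alternative added after the data were seen, the second was 0.81 with an adjusted p of 0.126. In Ad-Tmem120a-/- iWAT this left out LFD replicate 9 and HFD replicates 17 and 19, so fewer mice were compared.

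The sum of the endothelial markers was also higher by median on HFD, at 188 and 268 TPM in control and 170 and 254 TPM in Ad-Tmem120a-/- iWAT. The 7 markers were all detected, and their sum ranged from 122 to 218 TPM in control LFD, 202 to 317 in control HFD, 158 to 203 in Ad-Tmem120a-/- LFD and 193 to 303 in Ad-Tmem120a-/- HFD iWAT. Of the 7, 2 were called higher on HFD in control iWAT, and 1 was called lower in Ad-Tmem120a-/- iWAT. Their part in the Gpihbp1 difference was not tested.

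Angptl4, the fasting-induced inhibitor of lipoprotein lipase, had a mean of 50.1 ± 14.9 TPM in control LFD and 70.2 ± 14.8 TPM in control HFD iWAT, with 49.6 ± 8.83 and 52.0 ± 24.9 TPM in Ad-Tmem120a-/- iWAT. On LFD the control libraries held 35.7, 46.8, 43.2, 49.8 and 74.9 TPM, and control HFD libraries 68.2, 68.2, 67.6, 53.1 and 94.1 TPM, where 1 LFD library lay among the HFD ones. The Ad-Tmem120a-/- HFD libraries held 57.0, 38.8, 50.4, 23.5 and 90.4 TPM, which spanned the range of all the LFD libraries. The log2 diet difference was 0.32 ± 0.19 (edgeR adjusted p = 0.365) in control and 0.01 ± 0.28 (adjusted p = 0.992) in Ad-Tmem120a-/- iWAT.

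Lipf had the largest HFD to LFD ratio of the 10 genes, which is what it was chosen by. Control LFD libraries held 3.0, 0.344, 0.521, 0.530 and 0.812 TPM, and control HFD libraries 17.4, 21, 17, 27.6 and 41.2 TPM. Ad-Tmem120a-/- LFD libraries held 0.408, 0.261, 1.08, 0.470 and 0.428 TPM, and Ad-Tmem120a-/- HFD libraries 5.91, 10.7, 17.7, 2.12 and 22.4 TPM. The diets did not overlap within a genotype, and the lowest HFD library, Ad-Tmem120a-/- replicate 20, lay below the highest control LFD library. The mean TPM was 23.9 times as high on HFD in control and 22.2 times in Ad-Tmem120a-/- iWAT. On counts, which ran from 13 to 159 per library on LFD and from 111 to 1986 on HFD, the log2 differences were 4.34 and 4.30, or 20.3-fold and 19.7-fold. With 1 library left out, the control value ranged from 4.05 to 5.31 and the Ad-Tmem120a-/- value from 4.01 to 4.68. The value of 5.31, or 39.6-fold, was without control LFD replicate 1, which held 3.0 TPM. With limma on log2(TPM + 1) the values were 3.71 in control and 2.76 in Ad-Tmem120a-/- iWAT. The single annotated Lipf transcript has 10 exons and 1411 bases.

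Of the 12 stomach markers, Gif, Tff1, Tff2, Gkn1 and Gkn2 were listed at 0 in all 20 libraries. The sum of the list was at most 4.33 TPM, with medians of 2.21 TPM in control LFD and 2.29 TPM in control HFD iWAT. Of the relatives of Lipf in the acid lipase family, 2 were tested on diet in control and 3 in Ad-Tmem120a-/- iWAT, and none was called. Lipa, the lysosomal acid lipase, was at 52.8 TPM in control LFD and 88.3 TPM in control HFD iWAT, a log2 difference of 0.53 (edgeR adjusted p = 0.148), and at 51.0 and 78.9 TPM in Ad-Tmem120a-/- iWAT. Lipk, Lipm and Lipn had group means under 1 TPM.

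Vldlr, a lipoprotein receptor that binds triglyceride-rich particles and lipoprotein lipase, rose on HFD in both genotypes. The 5 control LFD values were 36.5, 31.0, 30.9, 28.4 and 39.4 TPM, and the control HFD values 83.3, 79.2, 67.6, 68.8 and 70.0 TPM. Ad-Tmem120a-/- LFD libraries held 27.9, 33.8, 27.7, 24.0 and 23.9 TPM, and Ad-Tmem120a-/- HFD libraries 46.2, 59.2, 62.3, 33.7 and 79.0 TPM. In control iWAT the diets did not overlap, and in Ad-Tmem120a-/- iWAT 4 of the 5 HFD libraries lay above every LFD library. Over all genes, 8.32% had all control HFD libraries above all control LFD libraries, and 5.01% did so in Ad-Tmem120a-/- iWAT. Gpihbp1 and Cd36 did in both genotypes. Lipf did too, but it was chosen for its HFD level, so it is not set against these shares. The log2 difference of Vldlr on counts was 0.74 ± 0.13 (1.68-fold, edgeR adjusted p = 0.00956) in control and 0.65 ± 0.15 (1.57-fold, adjusted p = 0.0286) in Ad-Tmem120a-/- iWAT. Alternatives added after the data were seen left out each group's library richest in white adipocyte markers, or the 4 libraries richest in fibre markers. In Ad-Tmem120a-/- iWAT they gave 0.57 (edgeR adjusted p = 0.122) and 0.65 (adjusted p = 0.151), with fewer mice compared. The control call held in all 19 alternatives, where leaving out the fibre-rich libraries was the same fit as leaving out LFD replicate 5.

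The ratio of mean Vldlr TPM, 2.22 in control iWAT, was larger than the fold on counts. The same held for Gpihbp1 (1.99 against 1.76) and Fabp4 (1.32 against 1.11), which have 1 annotated transcript each. The estimated mix of Vldlr transcripts also differed between the diets in control iWAT. Vldlr-001, the protein-coding transcript with 19 exons and 7971 bases, was at 18.7 ± 3.21 TPM in control LFD and 29.5 ± 3.93 TPM in control HFD iWAT. Vldlr-005, with 18 exons and 3253 bases and annotated as a target of nonsense-mediated decay, was at 9.76 ± 1.30 and 33.6 ± 6.18 TPM. Its share of Vldlr TPM ranged from 25.2 to 33.5% in control LFD libraries and from 37.0 to 56.0% in control HFD libraries, with no overlap. In Ad-Tmem120a-/- iWAT the range was 10.4 to 37.1% on LFD and 34.2 to 40.6% on HFD, and it overlapped. These shares are Salmon estimates from reads that the transcripts partly share, and they were not tested. With transcript length offsets in the edgeR fit, the control log2 difference was 0.97, and with limma on log2(TPM + 1) it was 1.13.

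**Figure D2:**
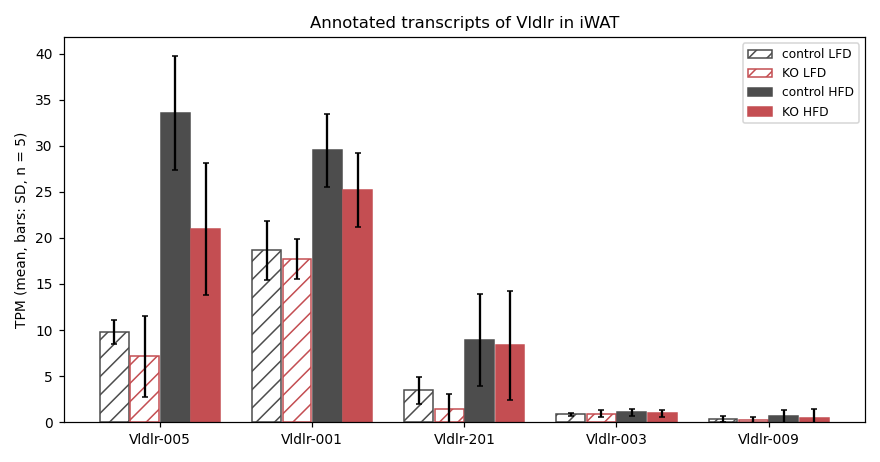
Estimated TPM of the annotated Vldlr transcripts, with columns for the mean and bars for the SD of 5 mice in each group (hatched LFD, solid HFD, grey control, red Ad-Tmem120a-/-, written KO). In control iWAT, Vldlr-005 lies at 9.76 ± 1.30 TPM on LFD and 33.6 ± 6.18 TPM on HFD, and Vldlr-001 at 18.7 ± 3.21 and 29.5 ± 3.93 TPM.

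Cd36, which takes up fatty acids at the plasma membrane of adipocytes and endothelium, separated the diets without passing the main test. Control LFD libraries held 2627, 1837, 1690, 1263 and 2199 TPM, and control HFD libraries 2924, 3275, 3358, 3265 and 3695 TPM. Ad-Tmem120a-/- LFD libraries held 1482, 1407, 1652, 2261 and 2321 TPM, and Ad-Tmem120a-/- HFD libraries 2470, 3493, 3431, 2325 and 3349 TPM. The HFD libraries all lay above the LFD libraries of their genotype, in Ad-Tmem120a-/- iWAT by only 2325 against 2321 TPM. The log2 difference was 0.56 ± 0.21 (edgeR adjusted p = 0.159) in control and 0.57 ± 0.24 (adjusted p = 0.199) in Ad-Tmem120a-/- iWAT. In control iWAT it passed without LFD replicate 1 (0.74, adjusted p = 0.0481), with DESeq2 (0.56, adjusted p = 0.0505) and with limma on log2(TPM + 1) (0.82, limma adjusted p = 0.0287). In Ad-Tmem120a-/- iWAT it passed with DESeq2 (0.57, adjusted p = 0.0836) and with limma on log2(TPM + 1) (0.73, limma adjusted p = 0.0623). Of all genes called with limma on log2(TPM + 1), 83.7% were higher on HFD in control and 65.8% in Ad-Tmem120a-/- iWAT. With edgeR these shares were 47.4% and 48.4%.

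Slc27a1, the fatty acid transport protein FATP1, had means of 72.4 ± 51.8 TPM in control LFD and 49.9 ± 21.1 TPM in control HFD iWAT, and 57.7 ± 28.2 and 46.6 ± 21.4 TPM in Ad-Tmem120a-/- iWAT. Control LFD replicate 4 held 161 TPM, and the other control LFD libraries 31.2 to 68.4 TPM. Control HFD libraries held 84.7, 36.9, 55.4, 37.9 and 34.8 TPM, and the groups overlapped. The log2 diet differences were -0.72 ± 0.43 (edgeR adjusted p = 0.382) and -0.31 ± 0.33 (adjusted p = 0.680). Lmf1 and Slc27a1 were the 2 genes whose estimates were lower on HFD.

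The intracellular carriers differed widely in level. Fabp4 was at 15520 ± 1960 TPM in control LFD and 20480 ± 2987 TPM in control HFD iWAT, and at 13290 ± 2115 and 19940 ± 3568 TPM in Ad-Tmem120a-/- iWAT. The log2 difference was 0.15 ± 0.18 (edgeR adjusted p = 0.707) in control and 0.43 ± 0.19 (adjusted p = 0.242) in Ad-Tmem120a-/- iWAT, where DESeq2 called it (0.42, adjusted p = 0.0863). Fabp5 was at 134 ± 33.3 and 240.3 ± 103 TPM in control iWAT, and at 153 ± 103 and 202 ± 80.7 TPM in Ad-Tmem120a-/- iWAT. On LFD the control libraries held 107, 132, 125, 191 and 116 TPM, and control HFD libraries 417, 235, 194, 148 and 208 TPM, with HFD replicate 14 below LFD replicate 4. Its log2 differences of 0.57 ± 0.26 (adjusted p = 0.233) and 0.30 ± 0.32 (adjusted p = 0.688) did not pass. In control iWAT Fabp5 passed with limma on log2(TPM + 1) (0.78, limma adjusted p = 0.0900), the fit whose calls were mostly higher on HFD. With edgeR it passed there without LFD replicate 4 (0.77, adjusted p = 0.0901). It also passed without the library of each group richest in white adipocyte markers (0.51, edgeR adjusted p = 0.0861). In Ad-Tmem120a-/- iWAT it passed without LFD replicate 7 (0.72, adjusted p = 0.0949). Fabp5 shares at least 94.0% identity with 4 annotated copies over stretches of 336 to 670 bases, so its reads could be divided, although no copy exceeded 0.426 TPM in any library.

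**Figure D3:**
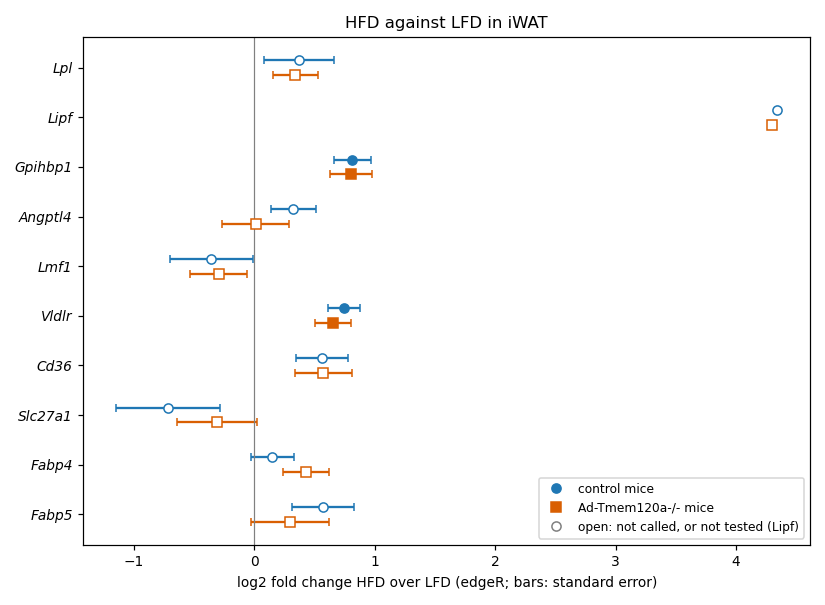
edgeR log2 difference between HFD and LFD (x axis) for each of the 10 genes in control (circles) and Ad-Tmem120a-/- iWAT (squares), with the standard error as bars except for Lipf, which is a description; filled symbols are called. Gpihbp1 (0.81 and 0.80) and Vldlr (0.74 and 0.65) are called in both genotypes, and the estimates of Slc27a1 and Lmf1 lie below 0.

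Other genes of the pathway, in 10 lists chosen with earlier results of these data known, were counted beside the 10. In control iWAT 70 further genes were tested, of which 10 were called higher and 6 lower on HFD, 22.9% against 9.32% of all genes, with a median log2 difference of 0.08 against -0.04 over all genes. In Ad-Tmem120a-/- iWAT 69 were tested, of which 11 were called higher and 4 lower, 21.7% against 9.4%. Their median was 0.14 against 0.00. The lists differed in direction, as the named genes show.

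Among genes of fatty acid uptake, Cav1 and Ptrf rose in both genotypes. Both serve caveolae, membrane pits of adipocytes and endothelium. Cav1 was at 817 TPM in control LFD and 1625 TPM in control HFD iWAT (log2 difference 0.82, edgeR adjusted p = 0.0510) and rose by 0.89 in Ad-Tmem120a-/- iWAT (adjusted p = 0.0247). Ptrf, which encodes cavin-1, the coat protein of caveolae, rose by 0.92 (adjusted p = 0.00723) and 1.12 (adjusted p = 0.00799). Cav2, a caveolin that pairs with Cav1, rose by 0.80 in Ad-Tmem120a-/- iWAT (adjusted p = 0.0597), and its value in control iWAT was 0.46 (adjusted p = 0.388). Slc27a2, a transporter and acyl-CoA synthetase of liver and kidney, and Got2, a mitochondrial transaminase also described as a plasma membrane fatty acid-binding protein, fell in control iWAT, by 3.24 (2.28 to 0.33 TPM, adjusted p = 0.0305) and 0.45 (adjusted p = 0.0527) on the log2 scale. In Ad-Tmem120a-/- iWAT the log2 differences of Slc27a2 and Got2 were -0.08 (edgeR adjusted p = 0.980) and -0.26 (adjusted p = 0.184). Markers of other cells were also called lower in control iWAT on HFD. They were 9 of the 12 muscle fibre markers (median log2 difference -5.54) and 3 of the 6 brown adipocyte markers (median -2.08). None of either list was called in Ad-Tmem120a-/- iWAT. The muscle fibre sum was 3795 TPM in control LFD replicate 5 and 70.4 to 312 TPM in the other control LFD libraries. In control HFD libraries it was 45.0 to 119 TPM, which overlapped. The part of these markers in the genes that fell in control iWAT was not tested. Dbi, the acyl-CoA-binding protein, rose in both genotypes, by 0.45 (adjusted p = 0.0703) and 0.60 (adjusted p = 0.0226).

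Among lipoprotein receptors and trafficking proteins, Lrp1, an endocytic receptor for remnant particles, fell in control (log2 difference -1.06, edgeR adjusted p = 0.0166) and in Ad-Tmem120a-/- iWAT (-1.24, adjusted p = 0.00935), the opposite direction to Vldlr. Sorl1, a sorting receptor, fell by 0.58 (adjusted p = 0.0634) and 0.87 (adjusted p = 0.0244) on the log2 scale. Stab2, a scavenger receptor, and Hspg2, the heparan sulfate proteoglycan perlecan, fell in Ad-Tmem120a-/- iWAT, by 1.71 (adjusted p = 0.00886) and 0.99 (adjusted p = 0.0305). In control iWAT the values of Stab2 and Hspg2 were -0.77 (edgeR adjusted p = 0.583) and -0.69 (adjusted p = 0.139). Pcsk6, a proprotein convertase, rose in control iWAT by 0.73 (adjusted p = 0.0476), with 0.29 in Ad-Tmem120a-/- iWAT (adjusted p = 0.566).

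Of the apolipoproteins, Apoe, a ligand of lipoprotein receptors, rose in control iWAT from 628 to 1215 TPM (log2 difference 0.75, edgeR adjusted p = 0.0807), and so did Apoc2, the cofactor of lipoprotein lipase, from 1.31 to 3.85 TPM (1.41, adjusted p = 0.0965). In Ad-Tmem120a-/- iWAT the values of Apoe and Apoc2 were 0.89 (edgeR adjusted p = 0.147) and 1.36 (adjusted p = 0.313), similar in size but not called. Apoc1 rose in Ad-Tmem120a-/- iWAT by 1.31 (adjusted p = 0.0441), with 0.59 in control iWAT (adjusted p = 0.473). Macrophages are a known source of these apolipoproteins, and the 10 macrophage markers summed to 685 to 912 TPM in control LFD and 935 to 1084 TPM in control HFD iWAT, with 3 of 10 called higher. Their part in these differences was not tested.

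Among genes that serve fatty acid transport across the endothelium, Apln, the ligand apelin, and its receptor Aplnr rose in both genotypes. Apln was at 0.768 TPM in control LFD and 4.19 TPM in control HFD iWAT, a log2 difference of 2.27 (edgeR adjusted p = 0.00528), with 2.502 (adjusted p = 0.00563) in Ad-Tmem120a-/- iWAT. Aplnr rose by 1.18 (adjusted p = 0.0315) and 1.19 (adjusted p = 0.00393). Tie1, an endothelial receptor tyrosine kinase that is also in the endothelial marker list, rose in control iWAT by 0.61 (adjusted p = 0.0423). Its value in Ad-Tmem120a-/- iWAT was 0.56 (adjusted p = 0.271). The transcription factor Tcf15 rose in Ad-Tmem120a-/- iWAT by 1.18 (adjusted p = 0.0361), with 0.94 in control iWAT (adjusted p = 0.141).

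Of the acyl-CoA synthetases, which trap fatty acids as thioesters, Acsl3 rose in Ad-Tmem120a-/- iWAT by 1.003 (edgeR adjusted p = 0.0193), and Acsm3, a medium-chain enzyme, fell in control iWAT by 1.70 on the log2 scale (adjusted p = 0.0932). Acsl3 had 0.29 in control iWAT (edgeR adjusted p = 0.422), and Acsm3 -0.10 in Ad-Tmem120a-/- iWAT (adjusted p = 0.911). Of the regulators, Hif1a, the hypoxia factor, rose in both genotypes, by 0.64 (adjusted p = 0.0904) and 0.92 (adjusted p = 0.00682). Pparg, the adipocyte master regulator that drives Lpl, Cd36 and Fabp4, rose in Ad-Tmem120a-/- iWAT by 0.46 (adjusted p = 0.0653). Its value in control iWAT was 0.08 (adjusted p = 0.792). Ppara, the fatty acid oxidation regulator, fell in control iWAT by 1.28 (adjusted p = 0.0428), with -0.38 in Ad-Tmem120a-/- iWAT (adjusted p = 0.679). Of the 11 secreted lipases listed, few passed the filter. Besides Lpl and Lipf, 3 were tested on diet in each genotype and 2 for genotype on HFD, and none of these was called. Fabp3, the heart and muscle carrier, was at 32.9 ± 35.3 TPM in control LFD and 10.08 ± 11.85 TPM in control HFD iWAT. In Ad-Tmem120a-/- iWAT it was at 13.4 ± 5.38 TPM on LFD and 62.1 ± 63.9 TPM on HFD. Its log2 diet differences were -1.92 ± 1.06 in control and 2.19 ± 0.72 in Ad-Tmem120a-/- iWAT. The genotype difference on HFD was 2.71 ± 1.08 and the interaction 4.08 ± 1.39. Fabp3 was not called in any comparison, and the part of muscle fibres in its values was not tested.

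The second question was whether the genes differed between Ad-Tmem120a-/- and control iWAT on the same diet. No member was called on either diet or over both. On LFD 9 of the 10 estimates were lower in Ad-Tmem120a-/- iWAT, with a median log2 difference of -0.24 against -0.02 over all genes. The same count on HFD was 9 of 10, with a median of -0.25 against 0.01. Over all genes, 52.8% and 48.7% had a lower estimate. The white adipocyte markers, none of them called, had medians of -0.27 on LFD and -0.22 on HFD, and the endothelial markers -0.11 and -0.22. Their part in the estimates of the 10 genes was not tested. The percentage of genes called was 0.00636 on LFD, 0.00657 on HFD and 0.0385 over both diets, 1, 1 and 6 genes by edgeR. At an unadjusted p under 0.05 there were 803, 709 and 1159 genes, and DESeq2 called 17, 99 and 32.

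The Lipf estimate was the largest. On HFD its mean was 11.8 ± 8.32 TPM in Ad-Tmem120a-/- and 24.9 ± 10.1 TPM in control iWAT, a log2 difference of -1.13 ± 0.51 (edgeR adjusted p = 0.999), and on LFD it was 0.529 ± 0.318 against 1.04 ± 1.11 TPM, or -1.08 ± 0.70 (adjusted p = 0.929). The LFD value was -0.14 without control LFD replicate 1. On HFD 3 of the 5 Ad-Tmem120a-/- HFD libraries lay below every control HFD library, and the other two lay within the control range. Over both diets the log2 difference was -1.11 ± 0.42 (adjusted p = 0.574).

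Vldlr was lower in Ad-Tmem120a-/- iWAT by estimate, at 27.5 ± 4.05 against 33.3 ± 4.55 TPM on LFD and 56.1 ± 17.1 against 73.8 ± 7.01 TPM on HFD. On each diet 4 of the 5 Ad-Tmem120a-/- libraries lay below every control library. The log2 difference was -0.26 ± 0.12 on LFD (edgeR adjusted p = 0.929), -0.35 ± 0.15 on HFD (adjusted p = 0.999) and -0.31 ± 0.10 over both diets (adjusted p = 0.459). Gpihbp1 had -0.30 ± 0.12 on LFD, -0.32 ± 0.19 on HFD and -0.32 ± 0.12 over both diets (adjusted p = 0.564). Lpl had -0.22 ± 0.29 and -0.26 ± 0.18, Cd36 -0.15 ± 0.25 and -0.14 ± 0.19, and Fabp4 -0.30 ± 0.19 and -0.03 ± 0.17. Lmf1 had -0.01 ± 0.32 and 0.05 ± 0.28.

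**Figure D4:**
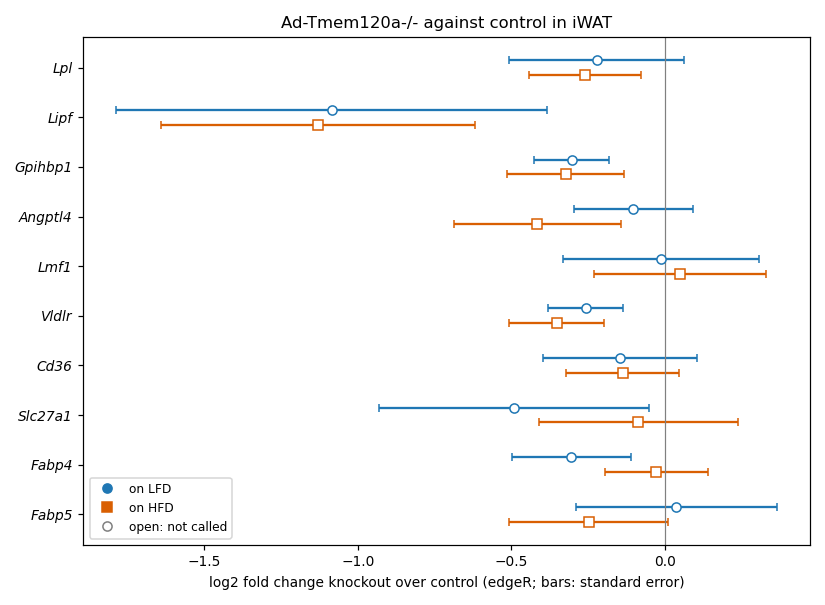
edgeR log2 difference between Ad-Tmem120a-/- and control iWAT (x axis) for each of the 10 genes on LFD (circles) and on HFD (squares), with the standard error as bars. All symbols are open because no gene was called, Lipf has the lowest estimates (-1.08 and -1.13), and Lmf1 lies at -0.01 and 0.05.

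The genotype difference on HFD was also compared with that on LFD. Of 15574 genes, 0% were called by edgeR for this interaction, 560 had an unadjusted p under 0.05, and DESeq2 called 14, none of them a member. For Angptl4, with diet differences of 0.32 and 0.01, the interaction was -0.32 ± 0.36 (adjusted p = 0.9999), and for Vldlr it was -0.11 ± 0.20. For Lipf the value was -0.05, given with no test, and its size and sign depended on single libraries. With 1 library left out it ranged from -0.99, without control LFD replicate 1, to 0.34. It was -0.95 and -0.81 with limma on log2(TPM + 1) and log2(TPM + 0.1).

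Within the groups, the 10 genes fell into sets that varied together. The values below are correlations of deviations from the group means over the 20 libraries on the log2(TPM + 1) scale; the libraries share tissue composition and TPM scaling, so they are a description. Lmf1 and Slc27a1 had a Pearson r of 0.895 (Spearman rho 0.868), and Slc27a1 had 0.937 (rho 0.883) with the summed white adipocyte markers. Fabp5 had 0.787 with Slc27a1 and 0.799 with the adipocyte sum. That sum can follow Cfd, the marker with the widest range, and need not measure adipocyte content. Lpl and Cd36 had 0.820 (rho 0.765) with each other, 0.750 and 0.678 with the endothelial sum, and -0.585 and -0.646 with the white adipocyte sum. With the brown adipocyte sum, which ranged from 44.9 to 672 TPM, they had -0.665 and -0.714.

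The same libraries set this pattern. Control LFD replicate 4, Ad-Tmem120a-/- LFD replicate 7, control HFD replicate 11 and Ad-Tmem120a-/- HFD replicate 21 were each the highest of their group for Fabp5, Slc27a1, Lmf1 and the white adipocyte sum, which was 9221, 5897, 7344 and 7288 TPM there. Control LFD replicate 4, at 161 TPM of Slc27a1, had the lowest Lpl (461 TPM) and Cd36 (1263 TPM) of its group. Control LFD replicate 1 had the lowest Slc27a1 (31.2 TPM) and the highest Lpl (1843 TPM) and Cd36 (2627 TPM) of its group. Gpihbp1 and Angptl4 had an r of 0.706, and Lipf and Vldlr 0.696 (rho 0.529).

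**Figure D5:**
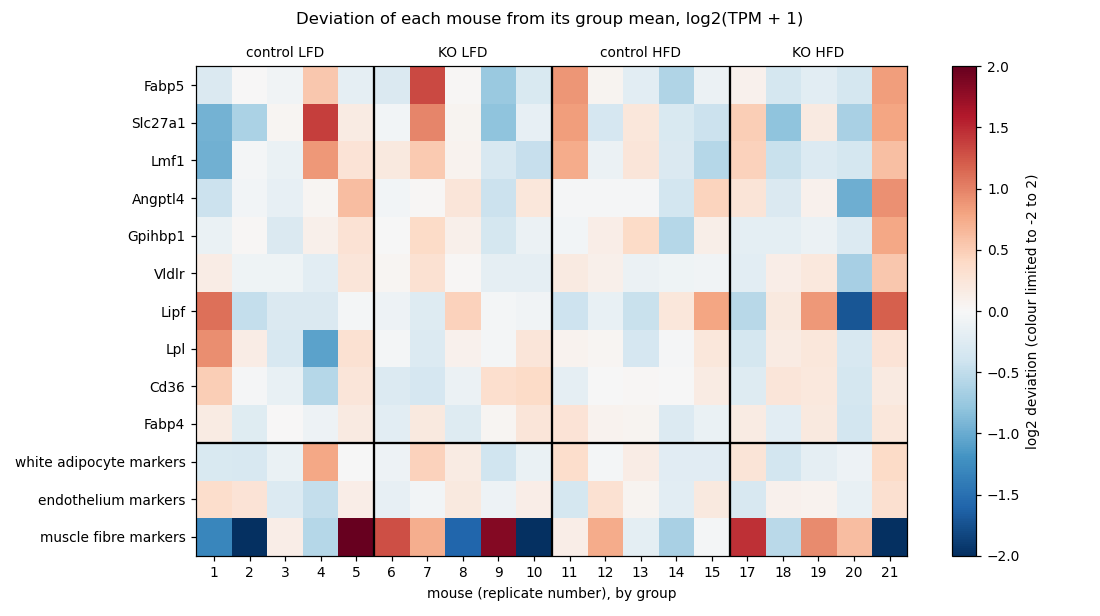
Deviation of each mouse (columns, by group, with its replicate number) from its group mean on the log2(TPM + 1) scale, for the 10 genes and the summed markers of white adipocytes, endothelium and muscle fibres (rows); red is above and blue below the mean, and colours stop at -2 and 2. Fabp5, Slc27a1, Lmf1 and the white adipocyte sum are all high in replicates 4, 7, 11 and 21, and Lpl and Cd36 are low in replicate 4.

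The genes whose level was most like that of Lipf were sought over all 20 libraries among 15573 genes, without a test, and the Lipf levels of the diets form separate clusters within each genotype. Sparc, a matrix protein that binds collagen, had the highest Pearson r at 0.966, with means of 426 and 1192 TPM in control iWAT on LFD and HFD. Tph2, a tryptophan hydroxylase, had 0.964, with 0.284 and 12.1 TPM, and Serpina3n, a secreted protease inhibitor, 0.957. Among the 10 genes, Vldlr was nearest at 0.949, the 11th of all genes, followed by Cd36 at 0.884 and Gpihbp1 at 0.835, and Slc27a1 was farthest at -0.222. Within the 10 HFD libraries alone, r was 0.918 for Sparc and 0.920 for Tph2, and within the 10 LFD libraries 0.737 and 0.671. For Vldlr the values within HFD and LFD were 0.884 and 0.427, for Cd36 0.862 and 0.530, and for Gpihbp1 0.533 and 0.0221. For Lpl the nearest genes were Gcap14 (0.974), Lpgat1 (0.970) and Bche (0.959), and Cd36 had 0.873.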

How the data were processed

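RNA was measured by ribosome-depleted, stranded, paired 150-base sequencing of iWAT from 20 mice, 1 library each. The authors quantified transcripts with Salmon 0.13.1 on Ensembl NCBIM37 cDNA and non-coding RNA and deposited an estimated count and a TPM value for each of 96533 transcripts. Their methods also describe alignment with STAR 2.5.3 and filtering, and whether the deposited values passed through it is not given in the sources used here. 

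Transcripts were summed to 36611 genes; 97.7% of them matched the annotation, and the rest held 0.377 to 0.581% of the counts. Rounded gene sums of the estimated counts were scaled by TMM and tested with edgeR 4.0.16 (R 4.3.3) quasi-likelihood fits, leaving out genes whose mean fell below 0.5 TPM, with Benjamini-Hochberg adjusted p under 0.1. Standard errors follow from the log2 fold change and the F statistic. The main design differed from the methods of the study, which used DESeq2, and DESeq2 1.42.0 and limma 3.58.1 on log2(TPM + 1) or log2(TPM + 0.1) were alternatives. The scripts were tested on simulated data. All 10 genes are named, with called genes of 10 pathway lists (up to 5 per list by fold change), their paralogs and the nearest genes by correlation. The members and lists were chosen with earlier results of these data known. The mice are separate animals, 5 per group, and no batch is given in the labels.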

Additional observations from a re-analysis of the deposited data

Results flagged for a closer look

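In 40 groups of 5 libraries (10 genes by 4 groups), 6 values stood apart from the rest of their group by Dixon's gap criterion (above 0.71 of the range), where chance gives about 1 in 20 groups. Lipf was at 3.0 TPM in control LFD replicate 1 and at 1.08 TPM in Ad-Tmem120a-/- LFD replicate 8. Gpihbp1 was at 106 TPM and Fabp5 at 341 TPM in Ad-Tmem120a-/- HFD replicate 21. Fabp5 was at 334 TPM in Ad-Tmem120a-/- LFD replicate 7, and Slc27a1 at 161 TPM in control LFD replicate 4. Replicates 4, 7 and 21 were also the highest of their groups for the white adipocyte marker sum, whose part in these values was not tested.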

How the results depend on the processing

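No paired analysis was possible because the groups share no replicate numbers. Of 1134 alternative values compared with the reported ones, 1059 were labelled the same. For tested values this means the same direction and side of the threshold. The Lipf diet and interaction values and the group means had no test, so they have no side of a threshold. Among 744 genotype and interaction values of members, none that was tested was called, and the Lipf interaction values among them were not tested. Leaving out libraries by marker sums was added after the data were seen. The adipocyte-rich libraries were the highest of each group, and the fibre-rich ones the 4 highest of all. The number of genes called on diet in control iWAT was 1427, and 2205 with DESeq2, 2148 with limma on log2(TPM + 0.1), 868 without the fibre-rich libraries, 728 at an adjusted p under 0.05, and 780 to 1845 with 1 library left out, where it was 780 to 873 without LFD replicate 2, 3 or 5 or HFD replicate 12 or 13. In Ad-Tmem120a-/- iWAT it was 1476, and 2223 with DESeq2, 768 without the adipocyte-rich and 427 without the fibre-rich libraries, 865 at 0.05, and 753 to 1355 with 1 library left out, 753 without LFD replicate 6 and 963 without HFD replicate 21. The share of calls that were higher on HFD was 47.4% in control iWAT with edgeR and 83.7% with limma on log2(TPM + 1), which moved the median of all genes from -0.04 to 0.13, and 48.4% against 65.8% in Ad-Tmem120a-/- iWAT. For genotype on LFD, 1 gene was called, and 17 with DESeq2, 2 with each limma fit and with all 20 libraries in 1 fit, and 1 to 2 with 1 library left out. For genotype on HFD, 1 was called, and 99 with DESeq2, 26 with no filter, 5 with length offsets, 3 and 4 with limma, 44 without the adipocyte-rich libraries, 3 with all libraries in 1 fit, and 1 to 58 with 1 library left out, 58 without Ad-Tmem120a-/- replicate 21 and 10 without control replicate 12. Over both diets 6 were called, and 32 with DESeq2, 2 with length offsets, 2 without the fibre-rich libraries and 4 to 9 with 1 library left out. For the interaction 0 were called, and 14 with DESeq2. Directions turned in 54 of the 1134 alternative values. They belong to 13 of the reported results, none called, with log2 differences of at most 0.49 in size. The interaction was compared in this way for Lipf, Angptl4 and Vldlr only. That of Lipf is not among the 13, although it ranged from -0.99 to 0.34 with 1 library left out. Over the alternatives the interactions of Lpl, Gpihbp1, Lmf1, Cd36, Fabp5 and Slc27a1 also took both signs. Those of Angptl4, Vldlr and Fabp4 did not. Angptl4 on diet in Ad-Tmem120a-/- iWAT was 0.01, and -0.0662 with length offsets, -0.0443 and -0.0475 with limma, -0.27 without adipocyte-rich and -0.17 without fibre-rich libraries, and -0.22 to 0.20 with 1 library left out. With 1 library left out, the LFD genotype difference ranged from -0.38 to 0.069 for Lpl, -0.20 to 0.059 for Angptl4, -0.21 to 0.28 for Lmf1, -0.28 to 0.00795 for Cd36, -0.40 to 0.24 for Fabp5 and -0.76 to 0.063 for Slc27a1. On HFD it ranged from -0.088 to 0.27 for Lmf1, -0.10 to 0.040 for Fabp4, -0.45 to 0.013 for Fabp5 and -0.27 to 0.17 for Slc27a1, and over both diets from -0.081 to 0.15 for Lmf1 and -0.32 to 0.025 for Fabp5. The LFD value of Angptl4 was 0.011 and 0.012 with limma and 0.15 without fibre-rich libraries, that of Lmf1 0.11 and 0.15 with limma, 0.18 without adipocyte-rich and 0.10 without fibre-rich libraries, and that of Fabp5 -0.20 without adipocyte-rich libraries. On HFD Lmf1 was -0.042 without fibre-rich and Fabp4 0.031 without adipocyte-rich libraries, and over both diets Lmf1 was -0.036 with length offsets. The cause was not tested. With 5 mice per group, small differences may go uncalled.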
